A study of Mus musculus with 6 samples.

Results

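A stretch of 2221 neighbouring transcript identifiers, out of 55419 in the deposited table, was examined in mouse embryonic stem cells with and without the histone methyltransferase G9a. The stretch holds every identifier from uc009krv.1 to uc009ocf.1, with both ends included, in the order of the table and makes up 4.01% of it. These bounds had been picked out because the transcripts between them were lower in knockout cells than in wild-type cells in these libraries. The genotype differences below therefore describe the stretch and do not test it.

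The wild-type group comprised 3 RNA-seq libraries from TT2 cells, an embryonic stem cell line labelled as derived from a C57BL/6 female and a CBA male. The knockout group comprised 3 libraries from TT2 cells that are G9a-/-, that is, without a working copy of the gene for G9a. The culture medium of all cells contained serum and LIF, a cytokine that keeps such cells undifferentiated, and poly-A libraries were made from total RNA. The labels do not say how many knockout clones were used or whether libraries came from separate cultures, so spread between libraries may be technical. The identifiers are not paired with gene names in the tables used here. The level of the G9a transcript and of stem cell markers was therefore not analysed here, and transcripts are named by identifier or by row, counted from the first line after the header.

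G9a and its partner GLP methylate histone H3 at lysine 9, a mark of repressed chromatin that can cover long domains holding several genes. Polycomb repressive complex 2 acts through a different mark, methylated lysine 27 of the same histone. The series was set up to ask how the H3K9 enzymes bear on silencing by that complex.

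Library totals ran from 5738463 to 9717847 counts. Over the tested transcripts of the stretch, the chi-square of each library pair, divided by its degrees of freedom, was 1.32 to 2.71 within a genotype and 12.7 to 17.6 between genotypes. Expected counts were scaled to each library's total over these transcripts, so an even fall of the whole stretch does not enter these values. In how counts were spread over the transcripts, libraries of a genotype thus differed from each other by more than counting noise. They differed less than libraries of different genotypes did. The identifiers in the table stand in strict alphabetical order, with 0 out of place, so neighbours in the table are neighbours in the identifier series. Those inside the stretch all begin with uc009. Which genes or positions they mark was not analysed here, and neighbouring identifiers may belong to the same gene and share reads.

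The share of expressed transcripts, which does not use the genotype difference, was higher in the stretch than in the bulk of the table and lay between those of the other stretches lower in knockout. No read in any library was found for 908 of the 2221 identifiers (40.9%). In the 49346 identifiers outside this and 3 other stretches with a shifted genotype difference, called the background from here on, the share was 49.9%. Enough reads for testing were present for 681 members (30.7%), against 22.4% of the background. In the other stretches lower in knockout, of 2663 and 595 identifiers, 43.1% and 39.5% had no read, and 26.4% and 31.6% could be tested. Another 632 members had reads but too few to test. The median wild-type level of the tested members was 11.2 CPM (CPM is the count relative to the scaled library total), with the middle 50% between 2.81 and 72.8 CPM. That of the background was 7.62 CPM. In knockout the medians were 8.55 CPM for the members and 8.65 CPM for the background. Within knockout replicates 1, 2 and 3 the member medians were 9.31, 8.41 and 8.68 CPM, and the background medians 8.74, 8.52 and 8.68 CPM. The higher median level of the members was therefore seen in wild type and in knockout replicate 1 only. It is not independent of the genotype difference. Between 1030 and 1117 members had at least 1 read in a given library, and the genotypes overlapped in this number (1051 to 1117 in wild type, 1030 to 1090 in knockout). The number was not adjusted for depth. The lowest values, 1030 and 1051, were those of knockout replicate 3 and wild-type replicate 2, which had the smallest totals (5738463 and 6478010 counts).

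Knockout libraries held a smaller share of their reads in the stretch. The stretch took 5.34%, 5.29% and 5.26% of the counts in wild-type replicates 1, 2 and 3. It took 4.13%, 4.06% and 4.10% in knockout replicates 1, 2 and 3. All knockout libraries lay below all wild-type libraries, and the replicates of a genotype were within a narrow range. The means were 5.30% ± 0.043 and 4.10% ± 0.037 (SD, n = 3 each), a ratio of 0.773 ± 0.0093 (SD propagated from both groups). Relative to counts in the background instead of the whole library, the ratio was 0.746. In bulk RNA, fewer cells of a kind and less RNA per cell cannot be told apart. The 10 most abundant members carried 22.1% ± 0.15 of the counts of the stretch in wild type and 23.0% ± 0.30 in knockout.

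Most tested members were lower in knockout cells, and few were higher. By the edgeR quasi-likelihood test at a Benjamini-Hochberg adjusted p under 0.05 over all 12713 tested transcripts, 345 of the 681 members fell (50.7%) and 41 rose (6.02%). In the background 14.0% fell and 23.3% rose. The stretch was chosen on this contrast, so these shares are given side by side and nothing is read from their difference. Of the 295 members that did not pass the threshold, 216 had a log2 fold change below 0. In total 561 of 681 members (82.4%) were below 0, compared with 47.4% of the background. All 3 knockout libraries were below all 3 wild-type libraries for 402 members (59.0%, background 18.9%), and above them for 55 (8.08%, background 27.7%). The genotypes overlapped for the other 224.

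The typical difference was modest in size. The median log2 fold change of knockout over wild type was -0.39, with the middle 50% of members between -0.62 and -0.17. The background median was 0.03, so that the stretch was shifted by -0.42, a ratio of 0.749. The spread of single members around the shifted median was no wider than in the background, with an interquartile range of 0.45 against 0.56. Within 0.25 of their own median lay 363 members (53.3%) and 46.4% of the background.

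**Figure D1:**
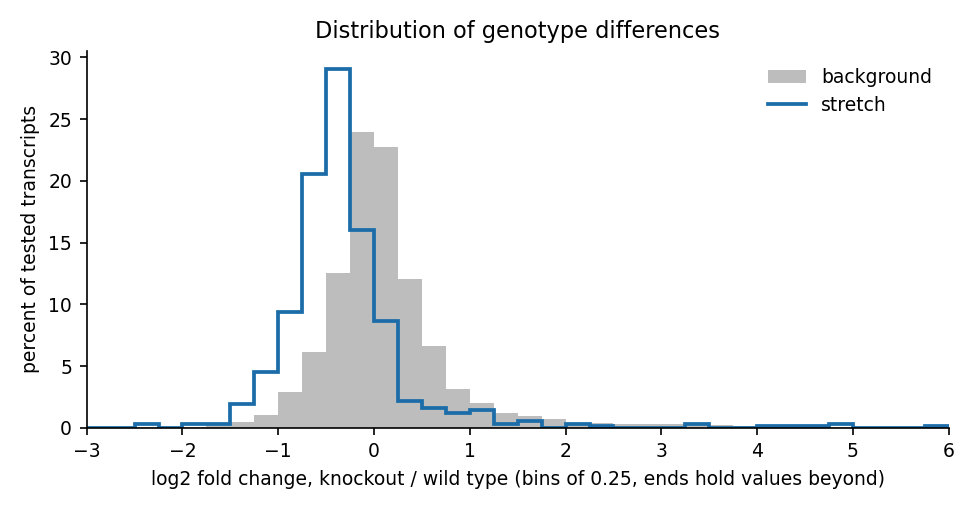
Histogram of the log2 fold change of knockout over wild type (x axis, bins of 0.25) for the 681 tested members of the stretch (blue outline) and the 11047 tested background transcripts (grey), as percent of each set (y axis). The highest bin of the stretch is that from -0.5 to -0.25 (29.1% of members) and the highest of the background that from -0.25 to 0 (24.0%), and the stretch has a thin tail of transcripts reaching 5.85.

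The shift was of like size at every level of expression. Tested transcripts were divided at the quartiles of mean CPM over all 12713. From the lowest to the highest group, the members' medians were -0.41, -0.45, -0.34 and -0.40 on the log2 scale. The background medians were 0.01, 0.01, 0.04 and 0.04. What changed with level was the spread and the share of calls. In the lowest group (0.603 to 2.52 CPM) the interquartile range of members was 0.78 and the median standard error of a fold change was 0.36, and 29 of 166 members (17.5%) fell, against 5.64% of the background at that level. In the highest group (50.8 to 15380 CPM) the interquartile range was 0.29 and the median standard error 0.06. There 172 of 198 members (86.9%) fell, 7 rose (3.54%) and 19 did not pass. In the background at that level 21.8% fell and 33.0% rose. In that group 154 of 198 members (77.8%) were within 0.25 of their median. The same share was 67.8% in the background group of that level, whose interquartile range was 0.31.

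**Figure D2:**
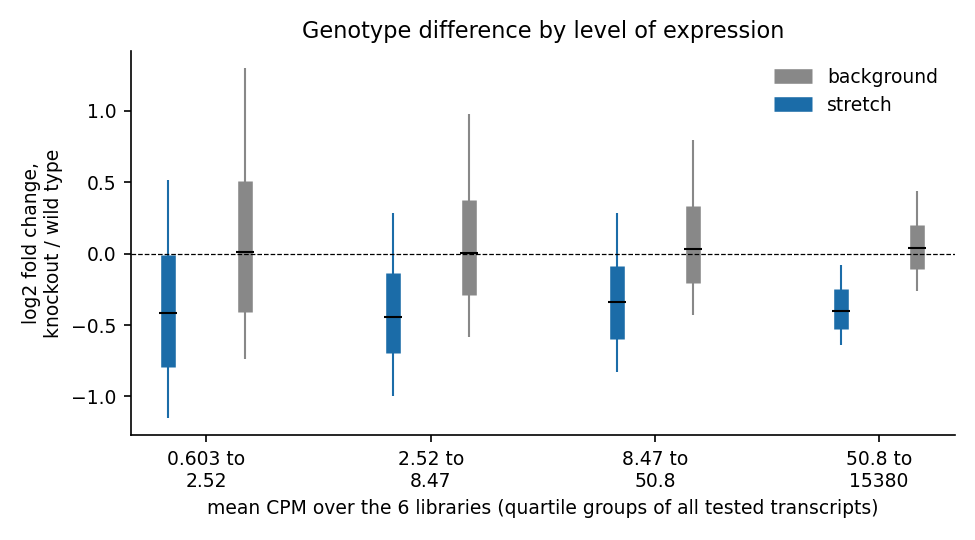
Log2 fold change of knockout over wild type (y axis) in 4 groups of mean CPM (x axis) for the stretch (blue) and the background (grey). Thick bars span the middle 50% of transcripts, thin lines the 10th to 90th percentile, and black ticks are medians. Medians of the stretch lie between -0.45 and -0.34 in all groups, and the bars narrow as the level rises.

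Members with too few reads to test were lower in sum as well. Together these 1540 identifiers had 183, 186 and 186 CPM in wild-type replicates 1, 2 and 3. In knockout replicates 1, 2 and 3 they had 155, 154 and 153 CPM. The genotypes did not overlap, and the ratio of the means was 0.834. Untested background identifiers were higher in knockout in sum, at 3404 ± 60.2 CPM in the wild-type and 3813 ± 76.6 CPM in the knockout libraries (SD, n = 3 each). Set against that sum, the untested members were at 5.43% ± 0.13 in wild type and 4.04% ± 0.10 in knockout, a ratio of 0.745.

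The shift was found in each of 10 parts of the stretch, although its last 20 tested members had a median of only -0.23. When the 681 tested members were divided in table order into 10 blocks of 68 or 69, the block medians lay between -0.52 and -0.25 on the log2 scale. Between 32.4% and 63.2% of a block's members fell. The lowest median belonged to the ninth block (rows 42547 to 42740, 43 of 68 fell and 5 rose) and the highest to the third (rows 41241 to 41530, 22 of 68 fell and 10 rose). In 2 of the 10 blocks 0 members rose. The longest run of tested members without a rise held 86 transcripts, in rows 41529 to 41727, of which 42 fell and 44 did not pass.

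**Figure D3:**
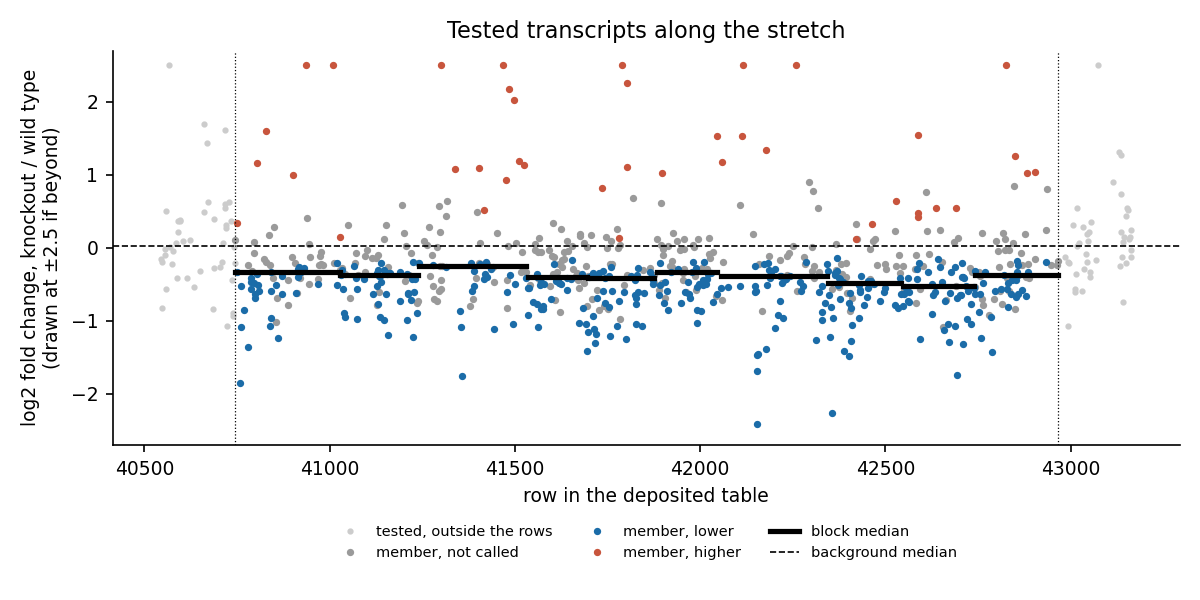
Log2 fold change of each tested transcript (y axis, values beyond 2.5 in either direction drawn at 2.5) by its row in the table (x axis), with members that fell in blue, members that rose in red and those not called in dark grey. Pale points are tested transcripts just outside the stretch, black bars are the medians of the 10 blocks, between -0.52 and -0.25, and the dashed line is the background median of 0.03.

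Each library showed its genotype's side in each block. The deviation of a library was taken as the median, over the members of a block, of log2 CPM minus the mean of that transcript over the 6 libraries. In the 3 wild-type libraries it lay between 0.10 and 0.24 in all blocks, and in the 3 knockout libraries between -0.26 and -0.05. In 0 of 10 blocks did the genotypes overlap. The third block had the smallest separation, with wild-type libraries at 0.10 to 0.12 and knockout libraries at -0.14 to -0.05. Over the whole stretch the deviations were 0.18, 0.20 and 0.18 in wild type and -0.16, -0.17 and -0.19 in knockout for replicates 1, 2 and 3. Over the background they were -0.016 to -0.008 in wild type and 0.026 to 0.035 in knockout. The genotypes thus did not overlap there either, and the stretch differed from the background in the sign and size of the separation.

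**Figure D4:**
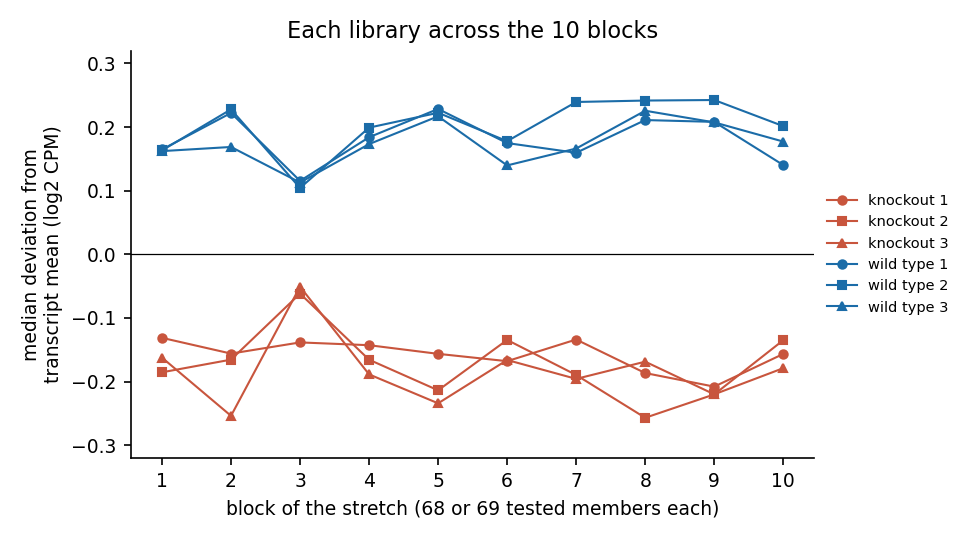
Median deviation of log2 CPM from the transcript mean (y axis) in each of the 10 blocks (x axis) for the 3 wild-type (blue) and 3 knockout (red) libraries, with a marker shape per replicate number. All wild-type values lie between 0.10 and 0.24 and all knockout values between -0.26 and -0.05, so no block has overlapping genotypes.

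Medians of 20 transcripts stepped down at the first boundary of the stretch and changed less at the last. The 20 tested transcripts just before the stretch had a median log2 fold change of 0.04, with 5 that fell and 7 that rose. The first 20 inside had a median of -0.44, with 13 that fell and 2 that rose. At the other end, the last 20 inside (from row 42858) had a median of -0.23, with 6 that fell and 2 that rose. The next 20 outside (rows 42986 to 43052) had a median of -0.16, with 1 that fell and 2 that rose. Among the 100 tested transcripts beyond each edge the medians were 0.06 before the stretch and 0.09 after it. The boundaries were set from the same differences, so these values only show where they were placed.

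The abundant members included exceptions to the shift. In the highest group of expression 86.9% of members fell, against 21.8% of the background. Of the 10 members with the highest mean CPM, 7 fell, 1 rose and 2 did not pass. The most abundant, in row 41946, averaged 2106 ± 75.4 CPM in the wild-type and 2068 ± 99.8 CPM in the knockout libraries (SD, n = 3 each). Its log2 fold change was -0.03 ± 0.04 (standard error). The next, in row 42422, was at 1294, 1262 and 1236 CPM in wild-type replicates 1, 2 and 3 and at 1382, 1361 and 1386 CPM in the knockout replicates. The knockout libraries were all above the wild-type ones, and the log2 fold change was 0.12 ± 0.04 (standard error). The third, in row 42551, went from a mean of 1314 CPM in wild type to 846 CPM, a fall by 0.63 ± 0.04 (log2, standard error), just past the lower bound of the middle 50% of members.

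Large falls were uncommon. Of the 345 members that fell, 48 had a log2 fold change of -1 or below. They were 7.05% of the tested members, and the share of such falls in the background was 1.72%. A log2 fold change of -2 or below was seen in 2 members (0.294%) and in 0.0815% of the background, or 9 transcripts. The median level of the 345 was 58.9 CPM in wild type against 40.8 CPM in knockout. The 48 with large falls were weaker, with medians of 4.17, 3.90 and 4.03 CPM in wild-type replicates 1, 2 and 3 and of 1.87, 1.79 and 1.56 CPM in the knockout replicates. Their fold changes were also less certain, with a median standard error of 0.28 against 0.08 for the 345.

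Gene names being absent, 2 members that fell and 2 that rose are named. They had the most extreme fold changes among those that passed the test, had a mean of at least 2 CPM and did not overlap between genotypes. uc009mvt.1 (row 42153) was at 18.3, 19.5 and 18.8 CPM in wild-type replicates 1, 2 and 3 and at 3.52, 4.04 and 2.78 CPM in the knockout replicates. The knockout libraries were all far below the wild-type ones, and the log2 fold change was -2.41 ± 0.15 (standard error). Its neighbours also stood apart from the typical shift, an observation made after their values were seen. In rows 42153 to 42157 all 4 tested transcripts fell, by log2 fold changes between -2.41 and -1.45. The abundant transcript among them, in row 42155, averaged 560 ± 11.6 CPM in the wild-type and 174 ± 7.97 CPM in the knockout libraries (SD, n = 3 each), with a log2 fold change of -1.69 ± 0.05 (standard error). Overlap between these 4 transcripts, or reads shared by them, was not analysed here.

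uc009nri.1 (row 42694) was at 4.27, 4.53 and 5.23 CPM in wild-type replicates 1, 2 and 3 and at 2.84, 0.449 and 0.694 CPM in the knockout replicates. Knockout replicate 1 lay much closer to the wild type than the other knockout libraries did. The log2 fold change was -1.74 ± 0.38 (standard error), from 121 wild-type and 33 knockout reads. Leaving out knockout replicate 1 gave -3.07, and leaving out knockout replicate 2 gave -1.25.

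The 41 members that rose spanned a wide range of wild-type levels, from 0.0698 to 1264 CPM. Their median went from 4.04 to 16.1 CPM. The wild-type median was 3.29 CPM for the 295 members not called and 58.9 CPM for the 345 that fell. Under 2 CPM in wild type were 16 of the 41, 84 of the 295 and 8 of the 345. The log2 fold change was 1 or above in 27 of them, 3.96% of the tested members (background 7.9%), and 2 or above in 11, or 1.62% (background 3.25%). These 11 were at 0.0698 to 3.01 CPM in wild type and at 2.48 to 32.3 CPM in knockout, with all knockout libraries above all wild-type libraries. Members with 3 reads or fewer summed over wild type and 10 or more in every knockout library numbered 2 of 2221 (0.090%), a share like that of the background (46 identifiers, 0.093%). The reverse was seen in 0 members and 1 background identifier.

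uc009mzx.2 (row 42258) was at 0.915, 0.156 and 0.419 CPM in wild-type replicates 1, 2 and 3 and at 27.1, 32.9 and 37.0 CPM in the knockout replicates. Its wild-type reads numbered 14 in all and its knockout reads 745. The ratio of the mean levels was 65.1. uc009kzk.2 (row 40936) was at 0.712, 0.156 and 0.523 CPM in the wild-type replicates and at 12.1, 11.5 and 12.3 CPM in the knockout replicates. It had 13 wild-type and 281 knockout reads, and the ratio of its mean levels was 25.9. Fitted log2 fold changes were 5.85 ± 0.25 for uc009mzx.2 and 4.53 ± 0.26 for uc009kzk.2 (standard errors).

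**Figure D5:**
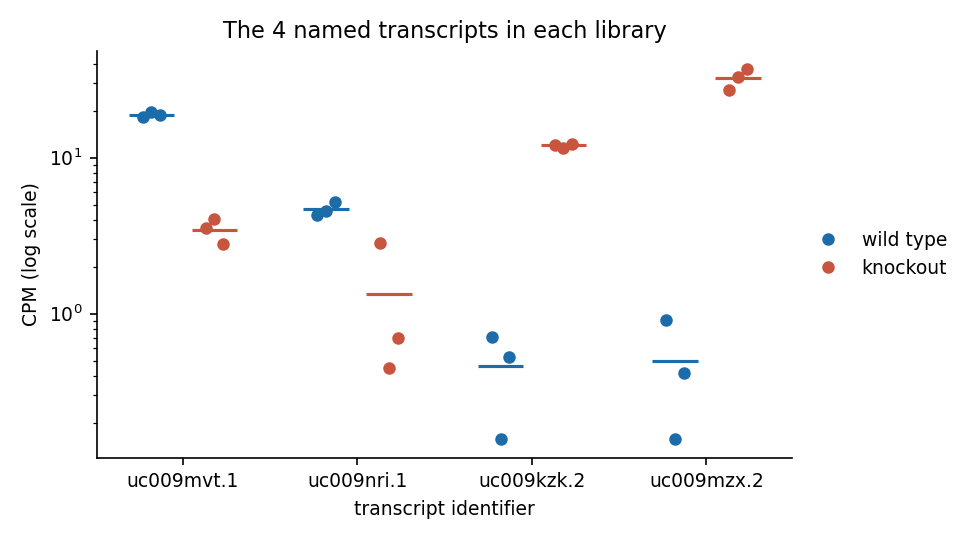
Level in CPM (y axis, log scale) of the 4 named transcripts (x axis) in each of the 3 wild-type (blue) and 3 knockout (red) libraries, with horizontal lines at the means. Knockout points lie below wild-type points for uc009mvt.1 and uc009nri.1 and above them for uc009kzk.2 and uc009mzx.2, and knockout replicate 1 of uc009nri.1, at 2.84 CPM, is nearest to its wild-type points.

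The run of 13 consecutive tested members with the most rises lay in rows 41468 to 41511, inside the third block, a place picked after the values were seen. There 5 of the 13 tested transcripts rose, 3 of them by 2 or more on the log2 scale, while 4 fell and 4 did not pass. The first of these, in row 41468, was at 2.44, 3.12 and 3.45 CPM in wild-type replicates 1, 2 and 3 and at 27.9, 28.1 and 31.6 CPM in the knockout replicates. Without these 13 transcripts the median of the third block was -0.26, close to the -0.25 with them. Some well expressed members rose too, of which the next is an example chosen after its values were seen. In row 41736 the level was 135, 135 and 134 CPM in wild-type replicates 1, 2 and 3 and 225, 253 and 235 CPM in the knockout replicates, and the log2 fold change was 0.82 ± 0.05 (standard error).

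The other stretches chosen for lower values had like numbers. In the longest of them, of 2663 identifiers, 341 of 702 tested transcripts fell and 70 rose, with a median log2 shift of -0.39 relative to the background. In the shorter, of 595 identifiers, 94 of 188 fell and 11 rose, and the shift was -0.44. The stretch described here lay between these, at -0.42. Its interquartile range of 0.45 was narrower than theirs, at 0.57 in the longest and 0.56 in the shorter. No test of these differences was made, because all the stretches were chosen on the contrast being compared.

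In the authors' deposited table, 949 members had an adjusted p-value. At the threshold of 0.05, 300 of them were lower (31.6%) and 48 higher (5.06%) in the authors' deposited table. The background shares in the authors' deposited table were 7.35% lower and 15.1% higher. By edgeR, 297 of the former and 39 of the latter were called in the same direction and 0 in the opposite one. The median of the log2 fold changes in the authors' deposited table over the 681 members tested here was -0.37.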

How the data were processed

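The submitters' processing notes name the mm9 build, Bowtie 0.12.7, R 2.12.1 and DESeq2, without saying what each was used for. The deposited table holds raw read counts per UCSC transcript identifier. How reads were counted, by strand or not, and how multiple alignments were handled is not given in the sources used, so overlapping transcripts may share or split reads. The authors' deposited normalized counts (a score rounded to whole numbers) were not used. The authors' deposited log2 fold changes and Benjamini-Hochberg adjusted p-values were only set beside the recomputed ones.

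Counts were filtered with filterByExpr of edgeR 4.0.16 (R 4.3.3), which kept 12713 of 55419 identifiers. They were scaled with TMM factors and tested by the quasi-likelihood method over the whole table, knockout against wild type, with no covariate. CPM is relative to the TMM-scaled library. Standard errors come from the F value. For deviations between libraries 0.5 CPM was added before taking log2. The code was tested on simulated data.

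The stretch, its bounds, the comparisons and the lists were chosen with earlier results of these data known. Named transcripts were the 2 most extreme in each direction among members past the test with 2 CPM or more on average and no overlap between genotypes. The planned lists of marker, H3K9 and PRC2 genes were not run, because no table used here pairs the identifiers with symbols. For that reason no sequence or position is given. Alternatives were DESeq2 1.42.0, other scalings and filters, a replicate block, each library left out and a stricter threshold.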

Additional observations from a re-analysis of the deposited data

How the results depend on the processing

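The counts of members that fell or rose stayed within 1.5 times the reported 345 and 41 in all 14 alternatives each, at 253 to 379 and 34 to 52. DESeq2 gave the lowest count of falls, 253, 252 of them shared with edgeR. The share that fell was less steady than the count, and both the count and the number of tested members differed between settings. In the main fit the share was 50.7% of 681 members (background 14.0%). With DESeq2 it was 28.4% of 890 (background 5.59%), and with no low-count filter 27.2% of 1313 (background 6.48%). With any single library left out there were 307 to 326 falls and 40 to 43 rises, medians from -0.40 to -0.38 and shifts from -0.44 to -0.40 on the log2 scale. The median of -0.39 became -0.44 with upper-quartile factors, -0.43 with TMM factors from identifiers outside the 4 stretches and -0.42 for members under 8 CPM. The shift of -0.42 became -0.47 with no low-count filter and -0.39 against all tested identifiers outside the stretch. The ratio of shares, 0.773, became 0.746 with background counts as the denominator. Background counts leave out all 4 stretches, the one described here included, by construction. With upper-quartile factors and with TMM factors from outside the 4 stretches, the background median was -0.02 and -0.01. The shift was -0.42 in both. For the rest the cause was not tested. No named transcript lost its call, with log2 fold changes of -2.54 to -2.31 for uc009mvt.1, -3.07 to -1.25 for uc009nri.1, 4.24 to 4.94 for uc009kzk.2 and 5.54 to 6.60 for uc009mzx.2.

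Replicate numbers were not treated as pairs, as deviations of same-numbered libraries correlated by only 0.071, 0.097 and 0.023 across transcripts. Every library was closest to the library of its own number in the other genotype, which is only a hint in the data. With the replicate number as a block 364 members fell and 43 rose, the median was -0.39 and the shift -0.42.

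Depth limits the weakly expressed members, where the median standard error of a fold change was 0.36. The bounds of the stretch were kept as found with all 6 libraries in every alternative, so a steady shift does not test them.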
